A study of Homo sapiens with 6 samples.

Results

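The genes described are 9 members of the ephrin family, taken by symbol from the 25737 entries of each count file. They are the Eph receptors EPHA2, EPHA4, EPHB2, EPHB3 and EPHB4 and the ephrins EFNA1, EFNA5, EFNB1 and EFNB2, and each symbol had 1 entry. They make up 9 of the 22 Eph receptor and ephrin genes that the files list. Transcripts were counted in A549 cells, a lung adenocarcinoma line, and in BEAS-2B cells, an immortalised bronchial epithelial line, after 48 h with 0, 1 or 5 ng/mL TGF-β1. TGF-β1 is the cytokine used here to drive the epithelial and matrix changes of lung fibrosis. Both lines carry the genotype label WT, and the control of each line is labelled as having no treatment. Treated cells were in medium with reduced serum, and the sources used here do not say separately whether the controls were too. Each of the 6 conditions was 1 library, so the error given for each value is counting error only and conditions within a line could not be tested. A fit across the lines, which would take them as replicates of each other, was not run.

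Eph receptors form the largest family of receptor tyrosine kinases. They bind ephrins on the surface of a neighbouring cell, and both the cell with the receptor and the cell with the ephrin can respond. A-type ephrins are held by a lipid anchor and B-type ephrins span the membrane. EphA receptors bind mainly A-type ephrins and EphB receptors mainly B-type ephrins, while EPHA4 binds both types and EPHB4 prefers EFNB2. In epithelia these contacts are known for cell sorting, boundary formation and the repulsion or adhesion of touching cells.

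Total counts ranged from 4120624 to 7841350 per library, and the 1 ng/mL library of A549 cells was the deepest. Values are given as normalized counts, which are counts scaled to a common library size, and as ND, which is log2(normalized count + 1). The label "called" is used for genes whose fold change (FC) was at least 2 and whose ND was at least 7, a normalized count of 127, in at least 1 of the 2 libraries compared. The response to TGF-β1 was present in every treated library. TGFBI, a matrix protein gene induced by TGF-β1, had 3585, 48552 and 34988 counts over the rising doses for A549 and 4298, 30715 and 23154 for BEAS-2B. The epithelial label was less clear. BEAS-2B cells had 2, 0 and 2 counts of CDH1, the epithelial cadherin, and 0 counts of EPCAM at all 3 doses, although the keratin genes KRT8 and KRT18 were counted in every library. Over 5 epithelial markers the summed normalized count was 24834, 11182 and 10461 for A549 and 2050, 1042 and 1262 for BEAS-2B. KRT18 and KRT8 made up most of each sum, with 16906 and 7081 in untreated A549 and 1582 and 415 in untreated BEAS-2B cells. In A549 cells CDH1 had 640, 30 and 8 counts. The 6 markers of leukocytes, endothelium and fibroblasts summed to between 3 and 95 counts per library, and CDH5 was at 0 throughout. In bulk libraries, fewer cells of a type and less RNA per cell cannot be told apart.

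The sequences before 4 of the members' annotated starts are shown because the results turn on these genes, EPHB2 and EFNB2 with more counts in both treated lines and EPHA2 and EPHB4 with calls downward. Each is the 250 bases before the first RefSeq start on GRCh38.p14, written 5′ to 3′ on the gene's strand, and capitals mark the letters CAGGTG on either strand, an E-box that ZEB and Snail repressors are known to bind.
EPHB2, chr1:22710588-22710837, plus strand: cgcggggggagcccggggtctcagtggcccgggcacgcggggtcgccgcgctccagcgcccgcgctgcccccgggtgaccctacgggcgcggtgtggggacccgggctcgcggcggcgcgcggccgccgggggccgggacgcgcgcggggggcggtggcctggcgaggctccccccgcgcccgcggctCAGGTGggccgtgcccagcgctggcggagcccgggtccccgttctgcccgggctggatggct
EFNB2, chr13:106535663-106535912, minus strand: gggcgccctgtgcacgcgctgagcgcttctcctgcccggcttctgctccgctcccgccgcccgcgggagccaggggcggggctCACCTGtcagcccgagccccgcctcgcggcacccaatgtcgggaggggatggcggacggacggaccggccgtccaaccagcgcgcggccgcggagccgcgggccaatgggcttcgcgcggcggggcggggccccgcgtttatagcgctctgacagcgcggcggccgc
EPHA2, chr1:16156070-16156319, minus strand: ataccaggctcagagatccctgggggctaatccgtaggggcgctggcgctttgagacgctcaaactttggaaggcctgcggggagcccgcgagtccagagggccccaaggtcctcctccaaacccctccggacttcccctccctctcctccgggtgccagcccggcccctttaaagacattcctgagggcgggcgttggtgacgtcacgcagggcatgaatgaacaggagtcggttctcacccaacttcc
EPHB4, chr7:100827524-100827773, minus strand: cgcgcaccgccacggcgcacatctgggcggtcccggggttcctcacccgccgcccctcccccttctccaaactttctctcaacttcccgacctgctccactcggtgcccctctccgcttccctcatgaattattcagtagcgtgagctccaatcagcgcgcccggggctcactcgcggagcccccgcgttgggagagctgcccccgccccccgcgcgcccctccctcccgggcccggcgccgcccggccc
EPHB2 and EFNB2 were the only 2 of the 9 members with CAGGTG in this window, at position -62 and, read as CACCTG, at position -167 from the start. CAGGTG on either strand was present in 17.5% of the 27305 promoter windows of the same length. CAGAC, the core of a Smad-binding element, was searched on both strands and was found once each before EPHA4, EPHB3 and EFNA1, against 37.8% of all windows. The AP-1 letters TGAGTCA, or TGACTCA on the other strand, were in none of the 9 and in 4.16% of all windows. No window of the 9 held more than 1 match, so no matches overlap. The windows of EPHB2, EFNB2, EPHB4 and EPHA2 held 42, 40, 29 and 15 CpG dinucleotides, against a median of 11 over all windows. The window of EFNA5, called down in BEAS-2B cells, held 41. Those of EFNA1, EPHB3, EFNB1 and EPHA4, which were not called after treatment, held 24, 21, 15 and 9. These matches describe letters in a window and not binding.

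Of the 9 members, 5 reached an ND of 7 in at least 1 of the A549 libraries at 0 and 5 ng/mL, and 4 did so in BEAS-2B cells. At 5 ng/mL in A549 cells, 1 member was called up (EPHB2) and 2 were called down (EPHA2 and EPHB4), where 16.1% of all genes reaching that level were called up and 17.1% down. At 1 ng/mL, EPHB2 was called up and EPHA2 down, against 10.9% and 12.6% of all genes. In BEAS-2B cells at 5 ng/mL, EPHB2 was called up and EPHB4 and EFNA5 were called down, against 7.33% and 11.6% of all genes. At 1 ng/mL no member was called up and EPHB4 and EFNA5 were called down, against 5.66% and 9.13% of all genes. Among the members that reached the level, the median log2 FC at 5 ng/mL was -0.28 for A549 and -0.97 for BEAS-2B, beside 0.11 and 0.03 over all genes that did. Both doses of a line share its control library, so the doses are not independent of each other. The plot of normalized counts by dose shows all 9 genes in the 6 libraries.

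**Figure D1:**
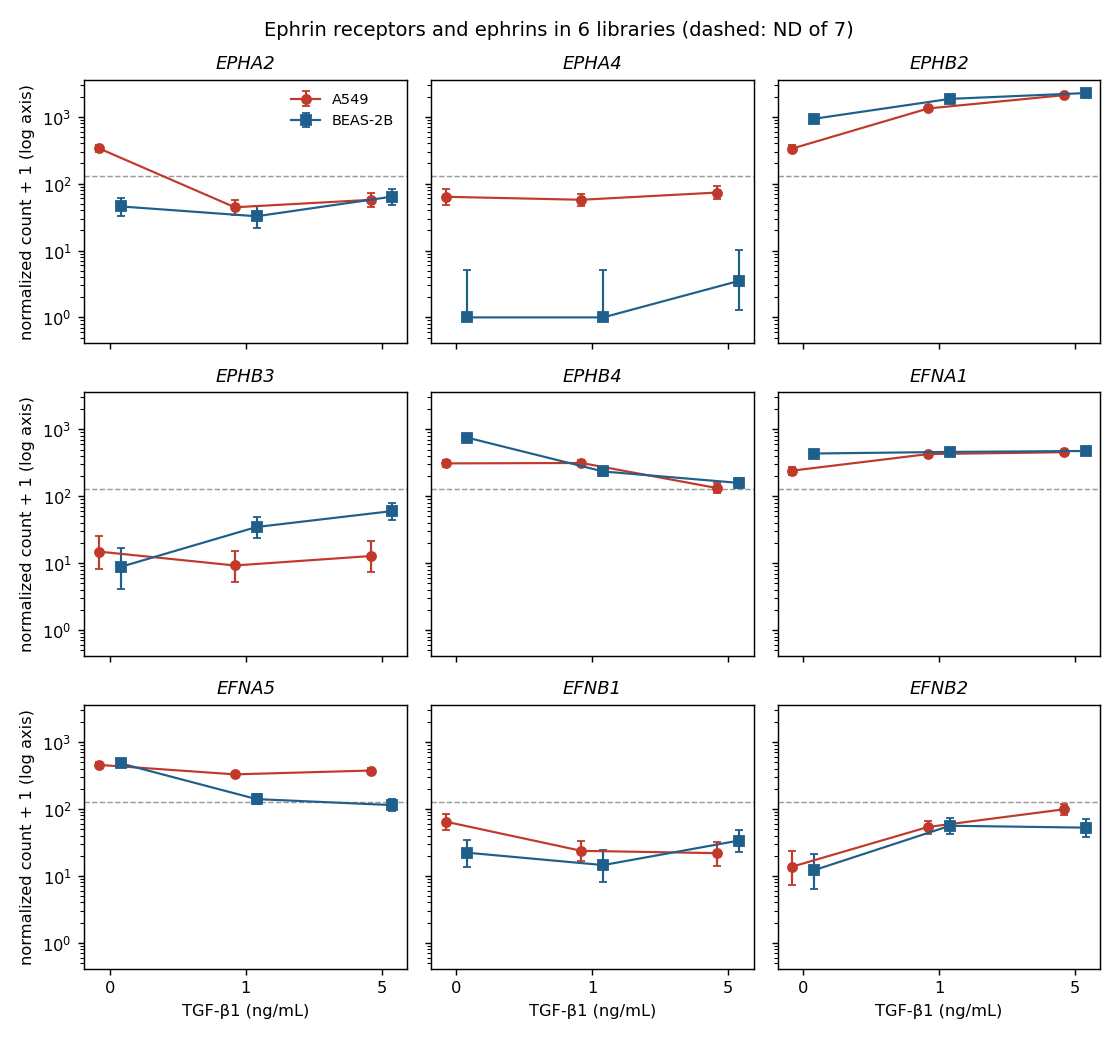
Normalized count plus 1 on a log axis against the TGF-β1 dose in ng/mL for each member, with circles for A549 cells and squares for BEAS-2B cells. Bars are exact 95% Poisson intervals of each count, the dashed line is an ND of 7, and only EPHB2 and EFNB2 lie above their untreated value at both doses in both lines by more than these intervals.

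EPHB2, a B-type receptor, was the member called up in both lines. It lies on chromosome 1 from 22710839 to 22921500 (GRCh38, plus strand). With 0, 1 and 5 ng/mL, its normalized counts were 334, 1328 and 2099 in A549 and 931, 1848 and 2257 in BEAS-2B cells. Every treated library was above both controls, and the 6 libraries were all separated from their neighbours in rank by more than counting error. EPHB2 rose 3.98-fold (95% interval 3.51 to 4.52) at 1 ng/mL and 6.29-fold (5.56 to 7.14) at 5 ng/mL in A549 cells. It rose 2.42-fold (2.23 to 2.63) at 5 ng/mL in BEAS-2B cells. In BEAS-2B cells at 1 ng/mL it was at 1.98 times its control (1.82 to 2.16), just under the limit. Its log2 FC of 0.99 ranged from 0.86 to 1.06 over the processing settings. It was called in 5 of 17 of them, including the setting that lowered the FC limit to 1.5 and left the log2 FC at 0.99. The controls of the lines differed, so EPHB2 started 2.79-fold lower (2.44 to 3.20) in A549 cells and ended at 2099 and 2257 normalized counts, a ratio of 1.08 (1.01 to 1.14).

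EPHA2, an A-type receptor abundant in many epithelia and carcinomas, was called down in A549 cells and was not called in BEAS-2B cells. It lies on chromosome 1 from 16124337 to 16156087 (minus strand). Its normalized counts were 336, 43.3 and 56.3 in A549 and 44.6, 31.5 and 63.0 in BEAS-2B cells. The untreated A549 library was high and the other 5 libraries were low, with none of those 5 separated from its neighbour in rank by more than counting error. EPHA2 fell 7.76-fold (5.89 to 10.4) at 1 ng/mL and 5.97-fold (4.53 to 7.99) at 5 ng/mL in A549 cells. The ratios in BEAS-2B cells were 0.706 (0.420 to 1.17) and 1.41 (0.913 to 2.20), at 40 counts in the control, and EPHA2 did not reach an ND of 7 there. Its A549 calls were lost where an ND of 7 was required in both libraries, since the treated libraries were under it. CDH1 and the summed epithelial markers were lower in the same A549 libraries, with the values given above, and their part in the EPHA2 values was not tested.

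EPHB4, a B-type receptor known for its role in vessels, fell in both lines. It lies on chromosome 7 from 100802565 to 100827521 (minus strand). Its normalized counts were 309, 314 and 132 in A549 and 752, 234 and 157 in BEAS-2B cells. The controls and the 1 ng/mL A549 library were high, and the 2 libraries at 5 ng/mL were the lowest and were not separated from each other. In BEAS-2B cells EPHB4 fell 3.21-fold (2.75 to 3.77) at 1 ng/mL and 4.77-fold (3.94 to 5.83) at 5 ng/mL. In A549 cells the ratio was 1.01 (0.871 to 1.18) at 1 ng/mL, and EPHB4 fell 2.35-fold (1.91 to 2.90) at 5 ng/mL. It was the only member called between the doses in A549 cells, with a fall of 2.39-fold (1.98 to 2.90) from 1 to 5 ng/mL, where 3.4% of all genes were called in either direction.

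The 2 other receptors stayed under an ND of 7 in every library and were not called. EPHB3, a B-type receptor of intestinal and other epithelia, lies on chromosome 3 from 184561784 to 184582409 (plus strand). Its counts were 12, 12 and 13 in A549 and 7, 30 and 47 in BEAS-2B cells, or 13.9, 8.24 and 11.8 against 7.81, 33.8 and 59.2 normalized counts. The treated BEAS-2B libraries were above the other 4, which were not separated from each other in rank. The BEAS-2B ratio was 4.32 (1.86 to 11.7) at 1 ng/mL and 7.58 (3.41 to 19.9) at 5 ng/mL, and the A549 ratio was 0.593 (0.244 to 1.44) and 0.848 (0.357 to 2.03). EPHA4, which binds both ephrin types, lies on chromosome 2 from 221418027 to 221574202 (minus strand). Its counts were 54, 82 and 80 in A549 and 0, 0 and 2 in BEAS-2B cells. The A549 libraries held 62.6, 56.3 and 72.6 normalized counts and were not separated from each other. The upper limit for a count of 0 (taken as 3 counts) corresponds to 3.35 and 3.38 normalized counts for BEAS-2B at 0 and 1 ng/mL.

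Among the ephrins, EFNB2, a B-type ligand of EPHB4 and other EphB receptors, was higher after treatment in both lines but stayed below the ND limit. It lies on chromosome 13 from 106489731 to 106535662 (minus strand). Its counts were 11, 77 and 108 in A549 and 10, 49 and 41 in BEAS-2B cells, or 12.7, 52.9 and 98.0 against 11.2, 55.1 and 51.6 normalized counts. All 4 treated libraries were above both controls by more than counting error, and the controls were not separated from each other. The ratio to the control was 4.15 (2.20 to 8.66) and 7.69 (4.13 to 15.9) in A549 and 4.94 (2.47 to 10.9) and 4.63 (2.28 to 10.4) in BEAS-2B cells, at 1 and 5 ng/mL. The annotation places an antisense transcript 416 bases from the window of its last 1000 bases, on a side that was not recorded. No exon of another gene lies in that window.

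EFNA5, an A-type ligand of EPHA4 and other EphA receptors, fell in BEAS-2B cells. It lies on chromosome 5 from 107376889 to 107670895 (minus strand). Its normalized counts were 455, 328 and 375 in A549 and 480, 140 and 113 in BEAS-2B cells. The treated BEAS-2B libraries were the 2 lowest, below every A549 library, and the controls of the lines were not separated. EFNA5 fell 3.44-fold (2.81 to 4.23) at 1 ng/mL and 4.23-fold (3.36 to 5.37) at 5 ng/mL in BEAS-2B cells, and the call at 5 ng/mL was lost where an ND of 7 was required in both libraries. In A549 cells the ratios were 0.721 (0.630 to 0.826) and 0.823 (0.715 to 0.947), which did not pass the FC limit.

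EFNA1, the A-type ligand best known as a partner of EPHA2, lies on chromosome 1 from 155127460 to 155134857 (plus strand). Its normalized counts were 241, 427 and 455 in A549 and 435, 460 and 475 in BEAS-2B cells. The untreated A549 library was low and the other 5 libraries were close together, with none separated from its neighbour in rank. The A549 ratios were 1.77 (1.51 to 2.08) and 1.89 (1.60 to 2.23) at 1 and 5 ng/mL, short of the FC limit at both doses. The BEAS-2B ratios were 1.06 (0.919 to 1.22) and 1.09 (0.945 to 1.26). EFNB1, an X-linked B-type ligand, lies on chromosome X from 68828997 to 68842147 (plus strand). Its counts were 55, 33 and 23 in A549 and 19, 12 and 26 in BEAS-2B cells, or 63.7, 22.7 and 20.9 against 21.2, 13.5 and 32.7 normalized counts. The untreated A549 library was above the other 5, whose neighbours in rank were not separated. The A549 ratios were 0.356 (0.224 to 0.558) and 0.327 (0.192 to 0.542), and EFNB1 did not reach an ND of 7 in any library.

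**Figure D2:**
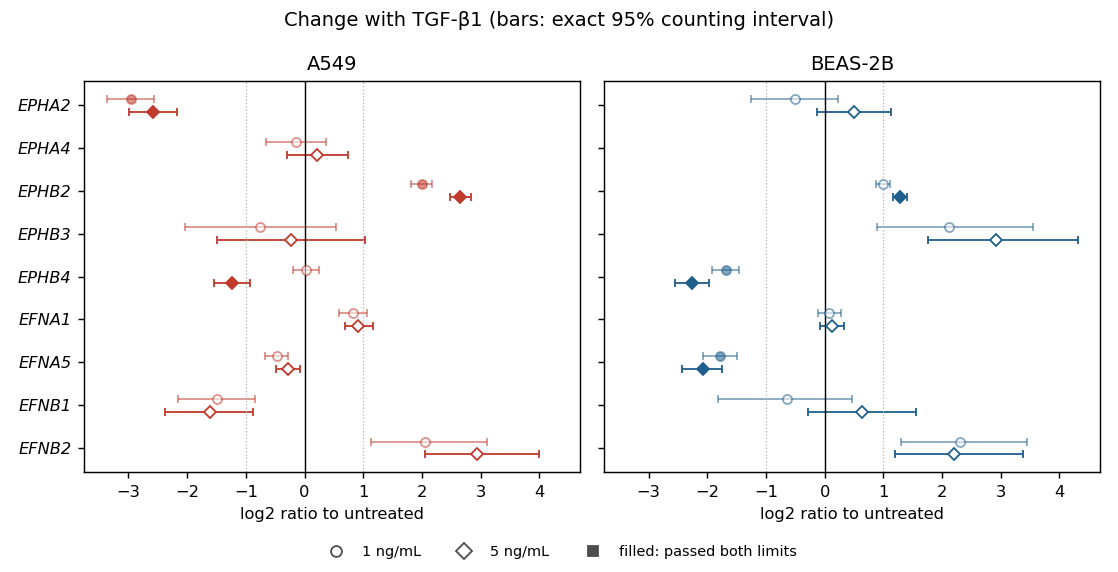
Log2 ratio of the normalized count to the untreated library of the same line for each member, in A549 cells on the left and BEAS-2B cells on the right, with circles at 1 ng/mL and diamonds at 5 ng/mL. Bars are exact 95% counting intervals, filled markers passed both limits, dotted lines mark an FC of 2, and EPHA4 has no point in BEAS-2B cells, where its control count was 0.

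The lines were compared at matched doses by the ratio of their fold changes, with an exact interval from the 4 counts. A fold here is the treated value over the control, so a gene that fell has a fold below 1. EPHA4 was left out because its BEAS-2B control was at 0. At 5 ng/mL the EPHB2 fold was 2.60 times (2.24 to 3.02) as large in A549 cells as in BEAS-2B cells, and at 1 ng/mL 2.01 times (1.72 to 2.34). For EPHA2 the BEAS-2B fold was 8.43 times (4.96 to 14.3) that of A549 cells at 5 ng/mL and 5.48 times (3.01 to 9.86) at 1 ng/mL. At 5 ng/mL the EFNA5 fold was 0.823 in A549 and 0.236 in BEAS-2B cells, so the fall was smaller in A549 cells. The A549 fold of EFNA5 was 3.48 times (2.65 to 4.59) that of BEAS-2B cells at 5 ng/mL and 2.48 times (1.94 to 3.18) at 1 ng/mL. The EPHB4 fold at 5 ng/mL was 0.425 in A549 and 0.209 in BEAS-2B cells, again a smaller fall in A549 cells. The A549 fold of EPHB4 was 2.03 times (1.52 to 2.71) that of BEAS-2B cells at 5 ng/mL and 3.26 times (2.61 to 4.07) at 1 ng/mL. EFNB2 was the member whose folds were not separated at either dose, with ratios of 0.840 (0.295 to 2.36) and 1.66 (0.581 to 4.65), and these wide intervals leave room for a difference. EFNB1 was not separated at 1 ng/mL, and at 5 ng/mL its BEAS-2B fold was 4.72 times (2.05 to 10.9) that of A549 cells. For EPHB3 the BEAS-2B fold was 8.94 times (2.56 to 32.0) that of A549 cells at 5 ng/mL, and for EFNA1 the A549 fold was 1.73 times (1.39 to 2.16) that of BEAS-2B cells, both from members that were not called. The intervals cover counting error and not the spread between cultures.

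Without treatment the lines already differed in their receptors. EPHA2 was called higher in A549 cells, by 7.53-fold (5.40 to 10.8), and EPHB2 and EPHB4 were called lower, by 2.79-fold (2.44 to 3.20) and 2.43-fold (2.11 to 2.81). These 3 members were called where 37% of all genes were called between the untreated lines in either direction. EPHA4 had 54 counts in A549 and 0 in BEAS-2B cells, at least 18.7-fold higher against an upper limit of 3 counts. EFNB1 was 3.01 times (1.76 to 5.37) as high in A549 cells and EFNA1 0.554 times (0.466 to 0.657), neither of them called. EFNA5, EFNB2 and EPHB3 were not separated, with ratios of 0.949 (0.826 to 1.09), 1.14 (0.441 to 3.001) and 1.78 (0.646 to 5.34). The call of EPHB4 was lost when a dependence of FC on the GC content of transcripts was removed, which gave a log2 FC of -0.85 in place of -1.28. From 1 to 5 ng/mL in BEAS-2B cells 0 members were called, where 0.904% of all genes were. The largest separated ratios at that step were 2.43 (1.18 to 5.28) for EFNB1 and 1.999 (1.23 to 3.30) for EPHA2, both under an ND of 7.

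The ratio of a receptor's count to that of a known ligand within 1 library does not depend on library scaling, so its change was read for 6 pairs. The ratio of EPHB4 to EFNB2 was lower after treatment in both lines, at 24.3, 5.94 and 1.34 over the doses for A549 and 67.4, 4.24 and 3.05 for BEAS-2B. At 5 ng/mL it was 18.1-fold lower (9.28 to 38.3) than in the control of A549 cells and 22.1-fold lower (10.5 to 50.5) than in that of BEAS-2B cells. At that dose the EPHB4 count was below its control and the EFNB2 count above it in each line. The ratio of EPHA2 to EFNA1 was 1.39, 0.101 and 0.124 in A549 cells, which was 13.7-fold (9.94 to 19.1) and 11.3-fold (8.13 to 15.8) lower with treatment. In BEAS-2B cells it was 0.103, 0.0685 and 0.133, with intervals of the change that included no change. The ratio of EPHA2 to EFNA5 differed in direction between the lines, lower by 4.92-fold (3.59 to 6.79) in A549 cells and 5.97 times (3.61 to 9.86) as high in BEAS-2B cells at 5 ng/mL. In A549 cells the numerator was the member called, and in BEAS-2B cells the denominator was. The ratio of EPHB2 to EFNB1 in A549 cells was 11.2 times (6.99 to 18.1) its control at 1 ng/mL and 19.2 times (11.4 to 33.2) at 5 ng/mL. For BEAS-2B the same ratio was 3.11 times (1.43 to 7.07) and 1.57 times (0.815 to 2.96). EPHB2 was not paired with EFNB2, also a ligand of EphB receptors. At 5 ng/mL EFNB2 rose 7.69-fold in A549 and 4.63-fold in BEAS-2B cells, beside 6.29-fold and 2.42-fold for EPHB2. The higher ratios are for EFNB1 as the ligand and were not read for EFNB2. At 5 ng/mL the ratio of EPHB3 to EFNB1 in BEAS-2B cells was 4.91 times (1.67 to 15.5) its control, where the counts were 7 and 19. That of EPHA4 to EFNA5 in A549 cells was 1.41 times (0.957 to 2.09) at this dose, an interval that included no change. The pairs share members and are not independent of each other.

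**Figure D3:**
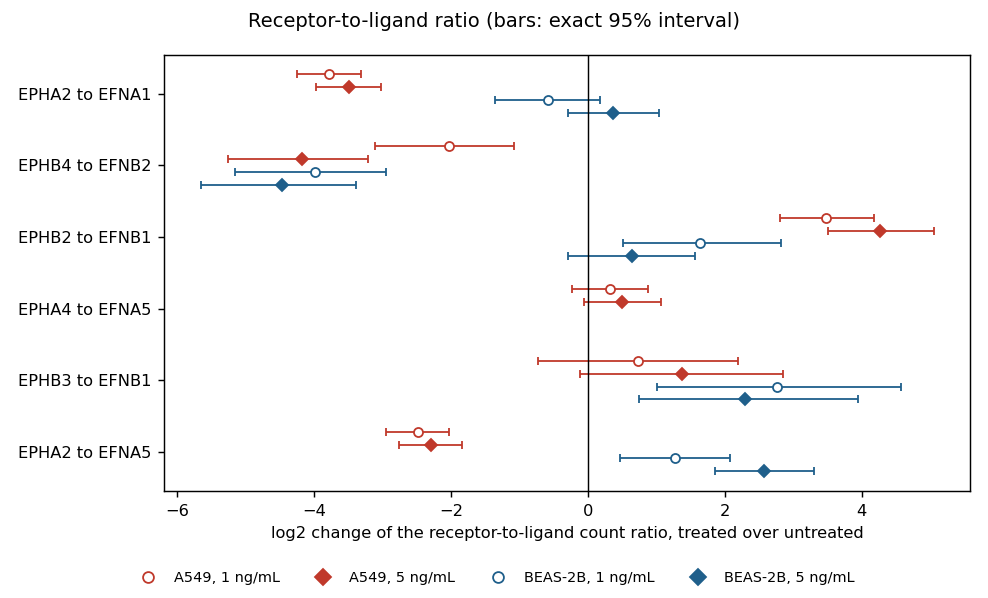
Log2 change of the receptor-to-ligand count ratio from the untreated to the treated library for 6 pairs, in red for A549 cells and blue for BEAS-2B cells, with open circles at 1 ng/mL and filled diamonds at 5 ng/mL. Bars are exact 95% intervals, and the ratio of EPHB4 to EFNB2 lies below 0 at both doses in both lines while that of EPHA2 to EFNA5 lies on opposite sides of 0.

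The reads of the 14 Eph receptor genes shifted toward EPHB2. EPHB2 took 30.0%, 70.9% and 84.0% of them in A549 and 52.9%, 85.2% and 88.0% in BEAS-2B cells. EPHA2 took 30.2%, 2.31% and 2.25% in A549 cells, and EPHB4 took 42.7%, 10.8% and 6.14% in BEAS-2B cells. With 5 ng/mL the summed receptor count was 2.25 times (2.09 to 2.42) as high for A549 and 1.46 times (1.36 to 1.56) as high for BEAS-2B. Summed over EphA receptors it was 2.42-fold lower (2.04 to 2.89) in A549 cells and 1.54 times (1.05 to 2.28) as high in BEAS-2B cells. Summed over EphB receptors it was 3.47 times (3.17 to 3.81) as high in A549 cells and 1.46 times (1.36 to 1.56) in BEAS-2B cells. The EphA sums in BEAS-2B cells were only 49 and 67 counts at 0 and 5 ng/mL. EPHA2 held 40 and 50 of these, and its own ratio included no change. Of the reads of the 8 ephrin genes, EFNA5 took 47.6%, 26.5% and 29% in A549 and 36.9%, 12.9% and 10.2% in BEAS-2B cells. EFNA1 took 25.2%, 34.4% and 35.2% in A549 and 33.5%, 42.5% and 42.9% in BEAS-2B cells. The summed ephrin count moved less than the receptor count, to 1.35 times (1.24 to 1.47) in A549 and 0.852 times (0.780 to 0.931) in BEAS-2B cells at 5 ng/mL. A 3′ library gives reads near the transcript's end, and the yield per transcript can differ between genes, so the change of a share is read and not which gene has more RNA.

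**Figure D4:**
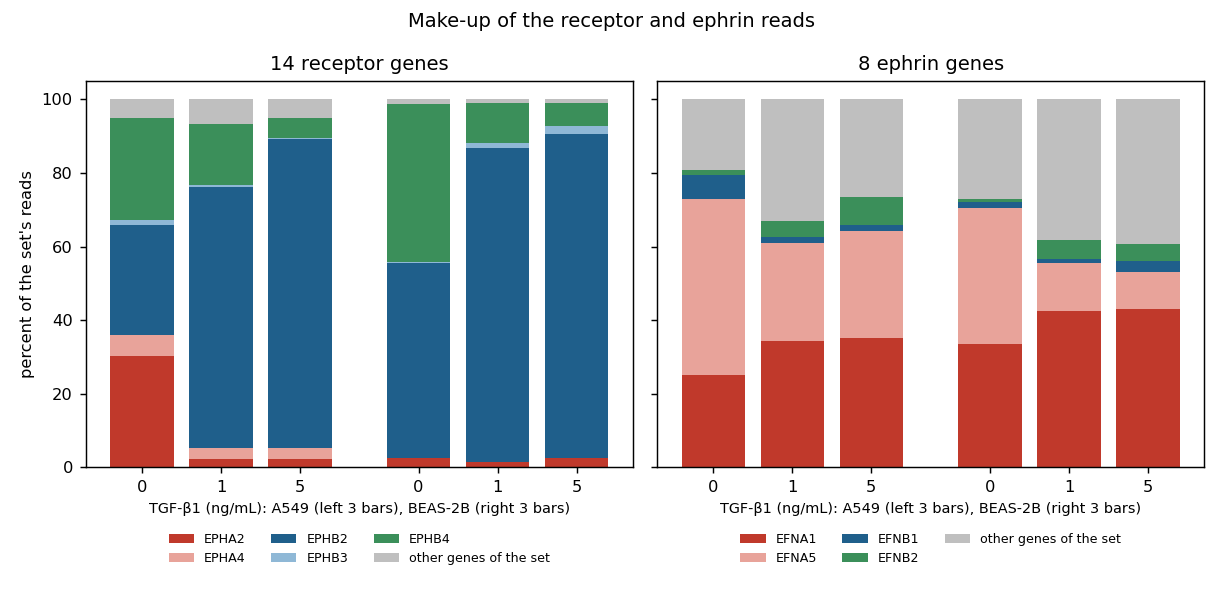
Stacked bars of the percent of reads that each member took among the 14 Eph receptor genes on the left and the 8 ephrin genes on the right, for A549 cells in the left 3 bars and BEAS-2B cells in the right 3 bars at 0, 1 and 5 ng/mL TGF-β1. EPHB2 grows from 30.0% to 84.0% of receptor reads in the A549 bars and from 52.9% to 88.0% in the BEAS-2B bars.

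The other 13 genes of the family were mostly low. EPHA3 and EPHA8 had 0 counts in every library, and EPHA5 and EPHA7 had 9 to 25 counts in the A549 libraries and 0 in the BEAS-2B libraries. EPHB1, a B-type receptor close to EPHB2, had 0, 68 and 45 counts in A549 cells and 3, 0 and 1 counts in BEAS-2B cells. With the A549 control of 0 taken as 3 counts, the treated A549 libraries were 13.4-fold and 11.7-fold higher, without counting error. EFNA2, an A-type ligand, had 25, 136 and 179 counts in A549 and 13, 108 and 62 in BEAS-2B cells. It rose 5.61-fold (3.68 to 8.90) at 5 ng/mL in A549 cells, and its BEAS-2B ratios of 8.38 (4.70 to 16.2) and 5.39 (2.93 to 10.7) were under the ND limit. EFNA4 had 93, 369 and 171 counts in A549 cells and rose 2.35-fold (1.87 to 2.99) at 1 ng/mL. At 5 ng/mL it was 1.44 times (1.11 to 1.87) its control and was not called. EFNB3 was counted mainly in BEAS-2B cells, with 106, 102 and 72 counts against 13, 33 and 7 in A549 cells.

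Of 50 genes listed as partners of Eph and ephrin signalling, 30 reached an ND of 7 at 5 ng/mL in A549 cells, where 5 were called up and 2 down, against 16.1% and 17.1% of all genes. In BEAS-2B cells 33 reached it, with 2 up and 1 down, against 7.33% and 11.6% of all genes. The 5 of 30 called up in A549 cells and the 2 of 33 in BEAS-2B cells are near the share over all genes. The counts called down are below it. Their median log2 FC was 0.05 and 0.11, beside 0.11 and 0.03 over all genes. SDCBP, the PDZ protein syntenin that binds the tails of B-type ephrins, fell in both lines. It had 761 counts untreated and 119 at 5 ng/mL for A549 (8.17-fold, 6.72 to 9.99), and 682 and 74 for BEAS-2B (8.16-fold, 6.41 to 10.5). In A549 cells NGEF, the exchange factor ephexin that EPHA4 is known to engage, rose 5.72-fold (4.42 to 7.49) and INPPL1, the lipid phosphatase SHIP2 that binds EPHA2, rose 4.65-fold (4.14 to 5.23). The adaptors GRB10 and GIT1 rose 2.92-fold (2.53 to 3.38) and 2.36-fold (2.02 to 2.78), and the adaptor GRB7 fell 2.14-fold (1.74 to 2.65). In BEAS-2B cells the kinase SRC rose 3.69-fold (2.84 to 4.84) and the adaptor NCK2 rose 2.63-fold (2.05 to 3.40).

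For the 4 members called at 5 ng/mL, the genes with the most similar profile over the 6 libraries were sought among 8067 genes, by the root mean square difference of centred ND values. The nearest to EPHB2 were MBOAT2 and BMP1, at 0.11 and 0.17 on the log2 scale, and MBOAT2 had normalized counts of 141, 508 and 834 in A549 and 426, 866 and 912 in BEAS-2B cells. The nearest to EPHA2 were S1PR3 and APEX1, at 0.15 and 0.31. S1PR3 had 199, 44 and 31 counts in A549 and 24, 17 and 32 in BEAS-2B cells. The nearest to EPHB4 were NFKBIA and NIF3L1, at 0.27 and 0.28, and the nearest to EFNA5 were WRB and EPAS1, at 0.21 and 0.23. With 6 libraries and 8067 genes, some close profiles are found for any gene, and the order describes these libraries.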

How the data were processed

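The authors deposited whole-number read counts per gene symbol without normalization, for 25737 entries in each of 6 QuantSeq 3′ mRNA libraries of total RNA. The submitters' processing notes name Bowtie2, bedtools and hg19 without versions. Positions, GC content and promoter sequences come from GENCODE 29 and RefSeq on GRCh38, so they locate the genes but not the regions where reads were counted. Scaling used TMM (edgeR 4.0.16, R 4.3.3) over the 6 libraries, to the mean effective size. FC was taken on the normalized count plus 1. With 1 library per condition no test was run, and the lines were not used as replicates of each other. Ratios carry exact 95% Clopper-Pearson intervals, and ratios of ratios carry exact conditional intervals (scipy 1.17.1, Python 3.11.15). Read duplicates without molecular identifiers are not independent, so the intervals may be too narrow even for counting error. They do not cover differences between cultures. The steps were tested on Poisson counts simulated from the control rates, with changes placed only in well-counted genes. That setting holds no duplicates and no differences between cultures. It placed no changes at counts as low as those of EPHB3, EFNB1, EFNB2 and EPHA4. Alternatives covered scaling, including the size factors of DESeq2 1.42.0, pseudocounts, filters, ND and FC limits, thinning to the smallest total and summed entries. The members, lists and tests were chosen with earlier results of these data known. Named genes are the members, the other family genes, at most 4 called signalling genes per direction and line, the 2 nearest profiles of each called member and the markers. All 9 members matched the RefSeq promoter table. 1 listed gene is not reported here.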

Additional observations from a re-analysis of the deposited data

Results flagged for a closer look

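EPHB3 was below its control at both doses in A549 cells and above it at both doses in BEAS-2B cells. The log2 of the A549 fold over the BEAS-2B fold was -2.87 at 1 ng/mL and -3.16 at 5 ng/mL. With 1 library per condition this difference was not tested, and the A549 ratios included no change within counting error, at 12 to 13 counts per library.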

How the results depend on the processing

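Of 116 recomputed counts (members called, members that differed between the lines and pairs that changed), 105 stayed within 1.5 times the count as reported and none of the called members turned direction. The limits moved the others. With no minimum ND, 5 and 4 members were called in A549 cells (5 and 1 ng/mL), in place of 3 and 2. In BEAS-2B cells 6 and 4 were called, in place of 3 and 2. Of all 25737 genes, 7449 and 6020 were then called in A549 cells and 5749 and 5349 in BEAS-2B cells. Between the doses in BEAS-2B cells 2 were called in place of 0, with 3457 of all genes. Between the untreated lines 5 were called in place of 3, with 8864 of all genes. The BEAS-2B calls at 5 ng/mL and between the doses include EPHA4 at 2 counts against 0, under the limit of 3 counts. An ND of at least 6 gave 5 in A549 cells at 5 ng/mL, with 3174 of 9354 genes called. An ND of 7 in both libraries gave 1 in A549 cells at 1 ng/mL, with 747 of 5317. That requirement removed EPHA2 in A549 cells at both doses and between the untreated lines, and EFNA5 in BEAS-2B cells at 5 ng/mL. An FC limit of 3 left 1 member between the untreated lines, with 1389 of 7329 genes called. It left 0 between the doses in A549 cells, with 36 of 6467, and a limit of 1.5 gave 2 there, with 1088. Scaling by total counts moved the median log2 FC of all genes at 5 ng/mL to -0.14 from 0.11 (A549) and to -0.12 from 0.03 (BEAS-2B), and at 1 ng/mL to -0.10 from 0.09 and to -0.12 from 0.01. EPHB2 was then at 2.45 and 1.15 at 5 ng/mL and kept its calls. Removal of a dependence of FC on the GC content of transcripts, over 20 bins, was chosen after seeing the data, and moved EPHA2 to -3.03, EPHB4 to -1.70 and EFNA5 to 0.08 on the log2 scale in A549 cells at 5 ng/mL. The cause of these moves was not tested. The labels give no replicate numbers to pair, and a fit with the cell line as a block was not run. Depth limits EPHB3, EFNB1, EFNB2 and EPHA4, which had under 110 counts in every library, and differences between cultures were not measured.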
